A study of Homo sapiens with 6 samples.

Results

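Contactins and contactin-associated proteins are neuronal cell adhesion molecules, and the genes of both families were examined for the LaminB1 regions along their bodies. The members are CNTN1, CNTN3, CNTN4, CNTN5, CNTN6, CNTNAP2, CNTNAP4 and CNTNAP5, 8 of the 13 genes of both families in the RefSeq table and 8 of 19974 protein-coding genes on chromosomes 1 to 22 and X. They are the members of a given list drawn from these families, and each body was followed in 20 kb steps. The other 5 family genes, CNTN2, CNTNAP1, CNTNAP3, CNTNAP3B and CNTNAP3C, had no covered sequence in any list, so the 8 members are all the family genes with cover and not the families as a whole. The double loss group was a derivative of an HCT116 line, a human colorectal carcinoma line, in which endogenous TOP2A carries an auxin-inducible degron and TOP2B is knocked out; it was given 500 uM auxin for 8 h to degrade TOP2A. The control group, called wildtype in the labels, was the TOP2A-degron line with TOP2B present, and the labels describe auxin for the double loss line only. The degron is thus present in both groups, and palbociclib at 2 uM for 28 h arrested cells of both in G1. CUT&RUN, which releases antibody-bound chromatin for sequencing, was directed at LaminB1, a structural protein of the nuclear lamina. Each group had 2 LaminB1 libraries, each deposited as 1 list of called regions on hg38, and 1 IgG library that was not analysed here as a sample. Whether the lines are single clones, and whether the replicates were separate cultures, is not given in the sources used here, so the spread between replicates may be technical.

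Contactins are immunoglobulin-superfamily proteins held to the outer membrane by a lipid anchor, and contactin-associated proteins (Caspr proteins) are their transmembrane relatives of the neurexin superfamily. Pairs of both organize contacts between axon and glia beside the nodes of Ranvier and take part in synapse formation. Their genes include some of the longest in the human genome and are chiefly expressed in the nervous system. Long, silent, gene-poor stretches of this kind are typical of lamina-associated domains, the chromatin that lies at the nuclear lamina. No expression was measured here, so whether the members were silent in these cells was not tested.

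The lists held 12410 and 12242 regions in the double loss group and 10771 and 13599 in the control group. Regions contained 8151172 and 8351031 LaminB1 reads in the double loss lists, against 7374626 and 7263458 in the control lists; total library depth is unknown. In all regions together, control library reads stood at 8.86 and 8.83 per kb in the double loss lists, against 6.93 and 6.97 per kb in the control lists. Regions of a group were scored with a control library of that group alone, so effects of that library, of the line, of auxin and of the knockout cannot be told apart. TOP2A and TOP2B were at 0% cover in every list. LaminB1 cover of a gene cannot show loss of its product, so the loss of both was not checked here. More cells with a stretch at the lamina and a closer contact per cell cannot be told apart in bulk material.

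The promoter sequences that bear on the results are those of CNTN4 and CNTNAP4, since no other member had a listed start inside a called region of any list. They come from RefSeq (GRCh38.p14, the same coordinates as hg38), cover 250 bases before to 50 bases after a start, and are on the plus strand. Capitals mark CG dinucleotides, which read the same on both strands. The outer start of CNTN4 is at chr3:2098616-2098915, its inner start at chr3:2891970-2892269, inside the gene body, and the start of CNTNAP4 at chr16:76277151-76277450.
CNTN4 outer start: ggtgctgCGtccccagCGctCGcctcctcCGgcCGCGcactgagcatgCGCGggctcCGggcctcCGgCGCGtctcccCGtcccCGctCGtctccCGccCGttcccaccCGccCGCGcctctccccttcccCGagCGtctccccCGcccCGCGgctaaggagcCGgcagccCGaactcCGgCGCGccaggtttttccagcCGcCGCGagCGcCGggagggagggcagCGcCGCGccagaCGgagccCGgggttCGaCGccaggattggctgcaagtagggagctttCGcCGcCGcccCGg
CNTN4 inner start: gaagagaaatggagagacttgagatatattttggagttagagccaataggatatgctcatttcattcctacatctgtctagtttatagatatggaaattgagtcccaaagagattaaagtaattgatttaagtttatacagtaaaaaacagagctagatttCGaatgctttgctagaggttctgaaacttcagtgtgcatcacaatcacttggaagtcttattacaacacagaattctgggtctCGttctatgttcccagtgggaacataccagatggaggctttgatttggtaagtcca
CNTNAP4 start: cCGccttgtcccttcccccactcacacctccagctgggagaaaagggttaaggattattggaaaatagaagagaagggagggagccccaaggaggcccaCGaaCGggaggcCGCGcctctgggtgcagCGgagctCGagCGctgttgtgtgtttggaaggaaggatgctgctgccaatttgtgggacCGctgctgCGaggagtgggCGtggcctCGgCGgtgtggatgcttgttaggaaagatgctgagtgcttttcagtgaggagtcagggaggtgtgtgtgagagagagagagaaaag
The outer CNTN4 window held 46 CG dinucleotides and the inner one 2, with G and C at 77.3% and 36.7% of bases. The CNTNAP4 window held 13. Over 22132 promoter windows of 15812 protein-coding genes the median was 21, and 98.1% held at least 1 CG. The 10 listed starts of the 8 members ranged from 2 to 46, with 43 in CNTN3, 30 in CNTN5, 26 in CNTNAP5, 16 in CNTNAP2 and 6 in CNTN6.

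The inner start of CNTN4 lay inside a region in double loss 1 and 2, and 17.2 and 5.78 kb away from the nearest region in control 1 and 2. Of all promoter windows, 0.633% had this pattern, 0.497% had the opposite and 2.57% lay inside regions of all 4 lists, as none of the members' did. The CNTNAP4 start lay inside a region in double loss 1 and in control 2, and 1.40 and 70.4 kb away in double loss 2 and control 1. The outer start of CNTN4 lay 1.14 and 22.1 kb from a region in the double loss lists, against 56.9 and 49.1 kb in the control lists. The CNTN6 start lay 22 and 21 kb from the nearest region in the double loss lists, against 142 and 48.0 kb in the control lists. For CNTNAP2, CNTN5 and the first listed start of CNTN1 the nearest region of control 1 was closer than that of either double loss list. The CNTNAP2 start was 106 and 104 kb away in the double loss lists, against 37.2 and 53.8 kb in the control lists.

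The comparison of the groups asks how much of each gene body lay in LaminB1 regions after loss of both type II topoisomerases and in the control line. The covered share was higher in both double loss lists than in both control lists for 7 of the 8 members, all but CNTN3, and lower for none; of the 13 family genes, the other 5 were at 0% in all lists. The same order was found for 21.5% of the 3058 protein-coding genes with covered sequence and for 35.5% of the 501 of these that are at least 300 kb long; the opposite order was found for 13.9% and 20.4%. Of the members, 7 belong to that long class and CNTNAP4, at 283 kb, falls just short of it. Summed over the members, 2487 and 2377 kb were covered in the double loss lists, against 1431 and 1410 kb in the control lists, of 6824 kb of gene body. Both double loss lists thus lay far above both control lists, at a ratio of 1.71 of the means, while the covered sequence of the whole genome had a ratio of 1.08. Long genes as a class were higher too. Over the 771 protein-coding genes of at least 300 kb, the median share was 13.0% in the double loss group and 6.14% in the control group. Over the members it was 26.0% and 11.4%, so a higher share in proportion was not particular to them. The ratio for the members stayed between 1.68 and 1.80 when any 1 member was left out. The median difference of group means was 14.3 percentage points over the members, 1.52 over covered genes of at least 300 kb and 0.77 over all covered genes. The members were chosen with earlier results of these data known, and no test was made of the list.

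**Figure D1:**
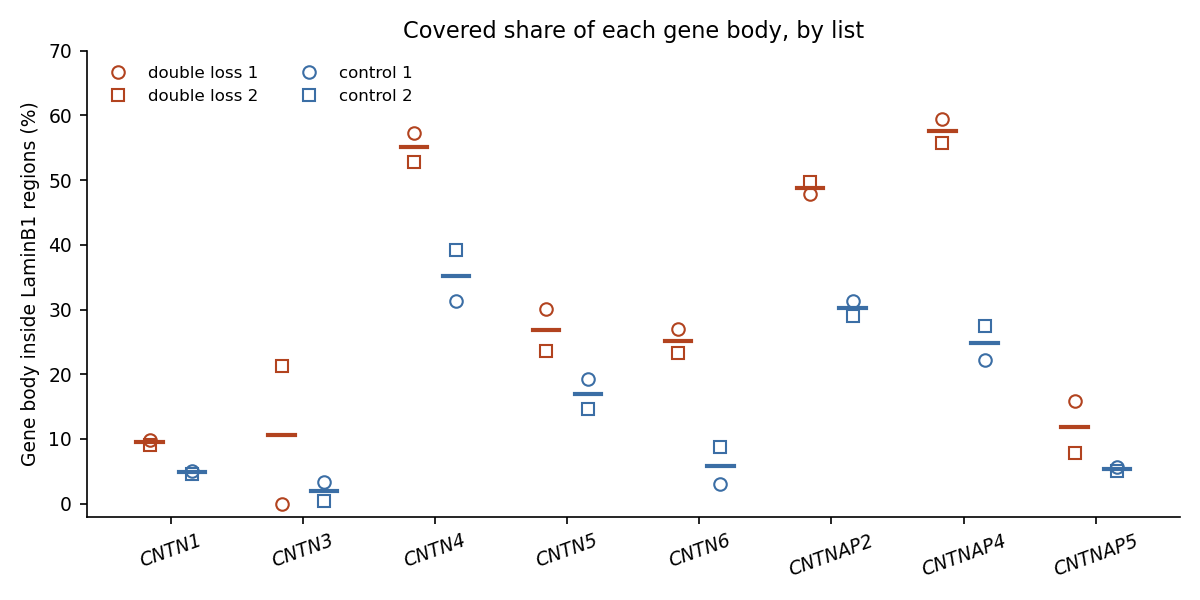
Share of each gene body inside LaminB1 regions (percent, y axis) for the 8 genes (x axis). Circles and squares are the lists of replicate 1 and 2, red for double loss and blue for control, and bars are group means; double loss 1 and 2 lay above both controls in every gene but CNTN3.

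No member passed on its own. In limma over all 3058 covered genes, with Benjamini-Hochberg adjustment, 0 of the 8 members were called at an adjusted p under 0.05, where 1.67% of genes were called higher and 0.981% lower. At an unadjusted p under 0.05 there were 3 members, all higher, against 9.58% of all covered genes in that direction and 5.98% in the other. Those 3 were CNTNAP4, CNTN6 and CNTNAP2. An exact permutation test of 2 against 2 lists cannot give a p under 0.333, so none is given per gene.

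Among the contactins, CNTN4 had the highest share. CNTN4, at 2098866 to 3057959 on chromosome 3, is an axonal contactin with a role in the wiring of the olfactory system in mice. It was covered at 57.3% and 52.8% in the double loss lists, against 31.3% and 39.2% in the control lists. The gap between the groups was wider than that within either: the group means were 55.0% ± 3.24 and 35.2% ± 5.60 (SD, n = 2 each; limma adjusted p = 0.402). Chromosome 3 as a whole was at 30.4% in the double loss group and 25.6% in the control group. Its double loss lists were above both controls too. In both groups CNTN4, CNTNAP2 and CNTNAP4 stood above their chromosomes, and CNTN1, CNTN3, CNTN6 and CNTNAP5 stood below theirs. CNTN5 stood below its chromosome in the control group only.

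CNTN6 lies next to CNTN4, at 1093024 to 1404217 on the same chromosome, and encodes the contactin also called NB-3. It was covered at 27.0% and 23.2% in the double loss lists, against 2.96% and 8.75% in the control lists. The controls had less covered sequence and lay apart from each other, at 25.1% ± 2.68 against 5.85% ± 4.09 (SD, n = 2 each; limma adjusted p = 0.248). CHL1, a neuronal adhesion gene of the L1 family that is the next protein-coding gene before CNTN6, was at 64.1% and 56.9% in the double loss lists, against 11.8% and 62.4% in the control lists. Its groups overlapped, because control 2 was high.

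CNTN5, also called NB-2, lies at 99020949 to 100358885 on chromosome 11. It was covered at 30.1% and 23.5% in the double loss lists, against 19.2% and 14.6% in the control lists. Both double loss values were above both controls, but the gap between the groups was narrower than the gap within each (26.8% ± 4.64 against 16.9% ± 3.22, SD, n = 2 each; limma adjusted p = 0.549).

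CNTN1 and CNTN3 were the least covered contactins. CNTN1, at 40692439 to 41072415 on chromosome 12, encodes the contactin that joins CNTNAP1 at the paranodal junction. It was covered at 9.85% and 9.06% in the double loss lists, against 5.00% and 4.62% in the control lists. The values within a group were close and the groups did not overlap, yet the difference was small (9.45% ± 0.558 against 4.81% ± 0.268, SD, n = 2 each; limma adjusted p = 0.521). CNTN3, on the minus strand at 74262568 to 74614659 on chromosome 3, was covered at 0% and 21.3% in the double loss lists, against 3.41% and 0.407% in the control lists. Only double loss 2 held more than 1 region there, so the mean of 10.7% ± 15.1 against 1.91% ± 2.12 (SD, n = 2 each; limma adjusted p = 0.823) rests on that library. Without double loss 2 the difference turned to -1.91 points.

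Among the contactin-associated proteins, CNTNAP4 had the largest difference of all 8 members. Its product, Caspr4, acts at synapses of interneurons in mice. The gene, at 76277401 to 76560757 on chromosome 16, was covered at 59.4% and 55.7% in the double loss lists, against 22.1% and 27.4% in the control lists. The total shares were close within each group and far apart between the groups. They were 57.5% ± 2.65 against 24.8% ± 3.70 (SD, n = 2 each, ratio of means 2.32, limma adjusted p = 0.181, unadjusted p = 0.0161). The places covered did not agree in the same way, since the control lists shared 0 kb of CNTNAP4 with each other. Chromosome 16 as a whole was at 14.3% in the double loss group and 14.2% in the control group, and its lists overlapped. The lists of chromosome 2, which holds CNTNAP5, overlapped too. Chromosomes 3, 7, 11 and 12, which hold the other members, were each above both controls. Group means were 25.3% against 21.6% on chromosome 7, 26.6% against 24.1% on chromosome 11 and 19.5% against 15.3% on chromosome 12. Of the 771 protein-coding genes of at least 300 kb, 501 had covered sequence. Among the 771, 17 had a larger difference than CNTNAP4. For the other members this number was 52 (CNTN4), 54 (CNTN6), 55 (CNTNAP2), 119 (CNTN5), 124 (CNTN3), 151 (CNTNAP5) and 182 (CNTN1).

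CNTNAP2, the second longest protein-coding gene in the table used, encodes Caspr2, which gathers voltage-gated potassium channels beside the paranodes of myelinated axons. It spans 146116801 to 148420998 on chromosome 7 and was covered at 47.8% and 49.8% in the double loss lists, against 31.3% and 29.0% in the control lists. The values were tight within each group, at 48.8% ± 1.38 and 30.2% ± 1.60 (SD, n = 2 each; limma adjusted p = 0.314, unadjusted p = 0.0483). This gene alone held 1102 and 1147 kb of the covered sequence of the members in the double loss lists, against 721 and 669 kb in the control lists.

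CNTNAP5, at 124025287 to 124921219 on chromosome 2, was covered at 15.8% and 7.81% in the double loss lists, against 5.58% and 5.02% in the control lists. The double loss lists were higher but far apart (11.8% ± 5.68 against 5.30% ± 0.395, SD, n = 2 each; limma adjusted p = 0.589). The difference of 6.53 points was 2.51 points without double loss 1 and 10.5 points without double loss 2. Over all 4 lists the mean share followed the order CNTN4 45.1%, CNTNAP4 41.2%, CNTNAP2 39.5%, CNTN5 21.9%, CNTN6 15.5%, CNTNAP5 8.57%, CNTN1 7.13% and CNTN3 6.28%. The first 3 cannot be ordered beyond their spread, and neither can the last 3.

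The position of the regions along the bodies differed between members. CNTNAP2, CNTN4 and CNTN5 were covered mainly toward the gene end in all 4 lists. Before the midpoint of its body CNTNAP2 was covered at 19.6% and 33.9% in the double loss lists, against 9.98% and 3.30% in the control lists. After the midpoint it was covered at 76.0% and 65.7% in the double loss lists, against 52.6% and 54.7% in the control lists. CNTN4 was at 37.7% and 32.9% before the midpoint in the double loss lists, against 12.1% and 26.7% in the control lists. After the midpoint it was at 76.9% and 72.5%, against 50.4% and 51.7% in the control lists. In both genes the double loss lists were above the controls on either side of the midpoint, as the step plot of the longest genes shows.

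CNTN5 was less covered before the midpoint than after it, and there the groups overlapped, at 13.3% and 4.78% in the double loss lists, against 10.6% and 2.69% in the control lists. After the midpoint it was at 46.9% and 42.2% in the double loss lists, against 27.8% and 26.6% in the control lists. The difference between the groups in CNTN5 thus lay after the midpoint, where the lists did not overlap. The last 100 kb of CNTN4 were covered at 96% in both double loss lists, against 95% and 100% in the control lists, so the groups met there. Of the 7 members of at least 300 kb, these 3 genes had more cover after than before the midpoint in all 4 lists, against 24.5% of 408 covered long genes with a known strand; the reverse order was found for none of the 7, against 17.4%. The split at the midpoint was chosen after the values had been seen.

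**Figure D2:**
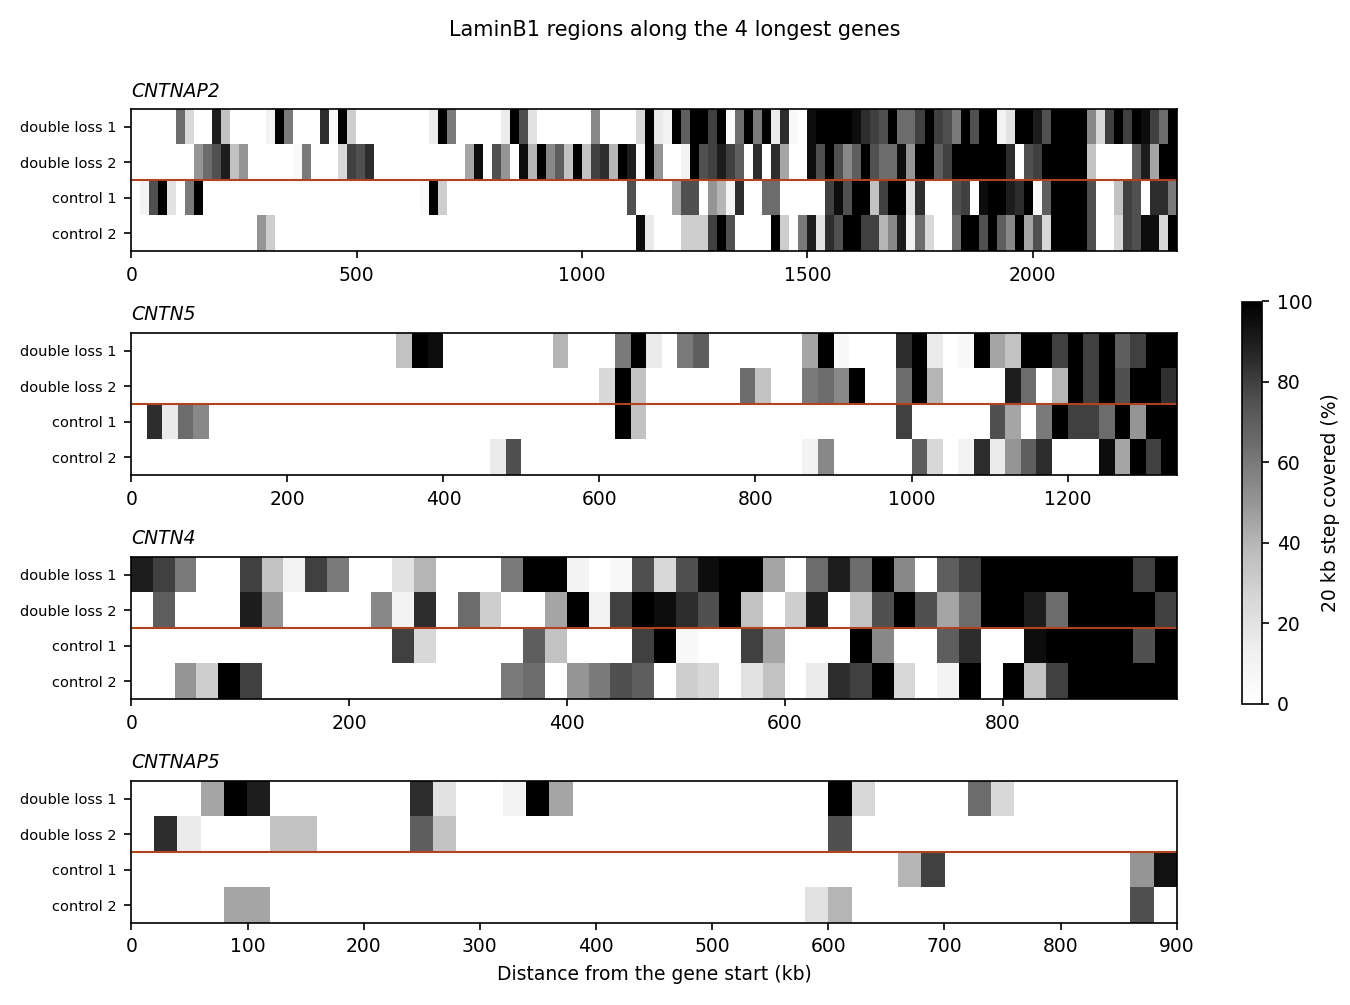
LaminB1 regions along CNTNAP2, CNTN5, CNTN4 and CNTNAP5, with distance from the gene start in kb on the x axis and 1 row per list (double loss above the red line, control below). Shading is the percent of each 20 kb step inside regions, the last step of a gene being shorter than drawn; dark steps gather toward the end of CNTNAP2, CNTN5 and CNTN4 in all 4 lists and are scattered in CNTNAP5.

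CNTN6 and CNTNAP4 had the opposite layout in the double loss group. CNTN6 was covered at 36.5% and 41.0% before the midpoint in the double loss lists, against 0% and 10.9% in the control lists. After it the values were 17.3% and 5.77% in the double loss lists, against 6.41% and 7.05% in the control lists, and the groups overlapped. CNTNAP4 was covered at 92.3% and 66.2% before the midpoint in the double loss lists, against 0% and 36.6% in the control lists. After its midpoint the double loss lists were at 26.8% and 45.1%, against 44.4% and 18.3% in the control lists. The higher share of both genes in the double loss group was therefore located before the midpoint.

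CNTNAP5 was covered before the midpoint at 22.1% and 12.3% in the double loss lists, against 0% and 4.02% in the control lists. Its last 100 kb went the other way, at 0% in both double loss lists, against 26% and 15% in the control lists. CNTN1 before the midpoint was at 8.42% and 0% in the double loss lists, against 10.0% and 9.47% in the control lists. It was covered after the midpoint at 11.5% and 18.3% in the double loss lists, against 0% in both control lists. In CNTN1 the controls were thus higher before the midpoint and the double loss lists higher after it. The control lists shared 0 kb with each other in this gene, so the place of the regions differed within that group as well. The body in the RefSeq gene table begins 136 kb before the first start listed for CNTN1.

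**Figure D3:**
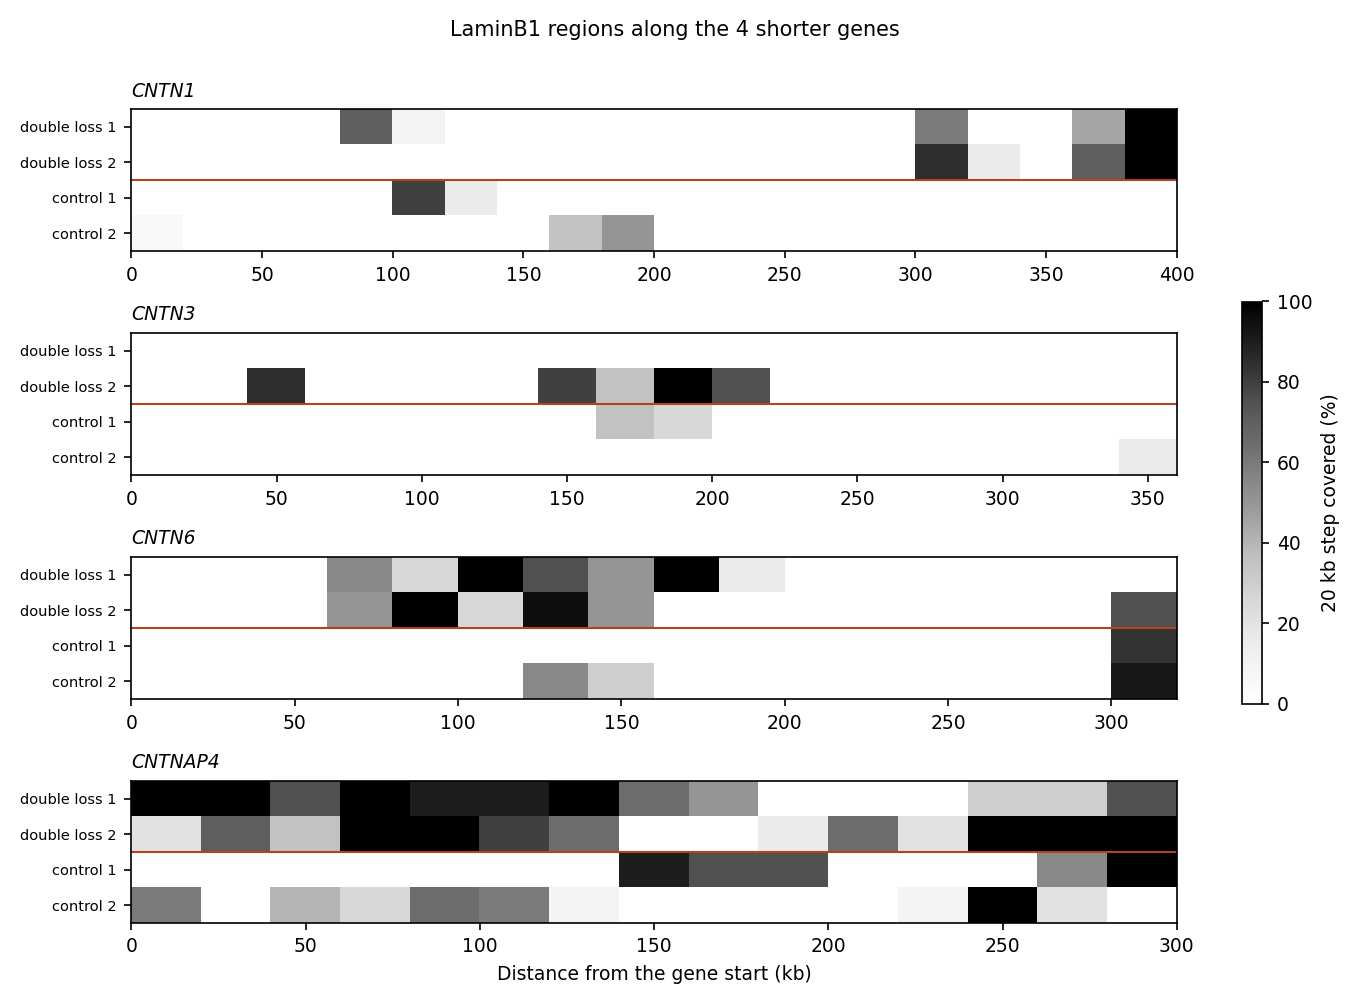
LaminB1 regions along CNTN1, CNTN3, CNTN6 and CNTNAP4, with distance from the gene start in kb on the x axis and 1 row per list (double loss above the red line, control below). Shading is the percent of each 20 kb step inside regions, the last step being shorter than drawn. The double loss rows of CNTN6 and CNTNAP4 hold more cover before the midpoint than after it, though double loss 2 is also dark at the end of CNTNAP4. CNTN3 is marked mainly in double loss 2.

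**Figure D4:**
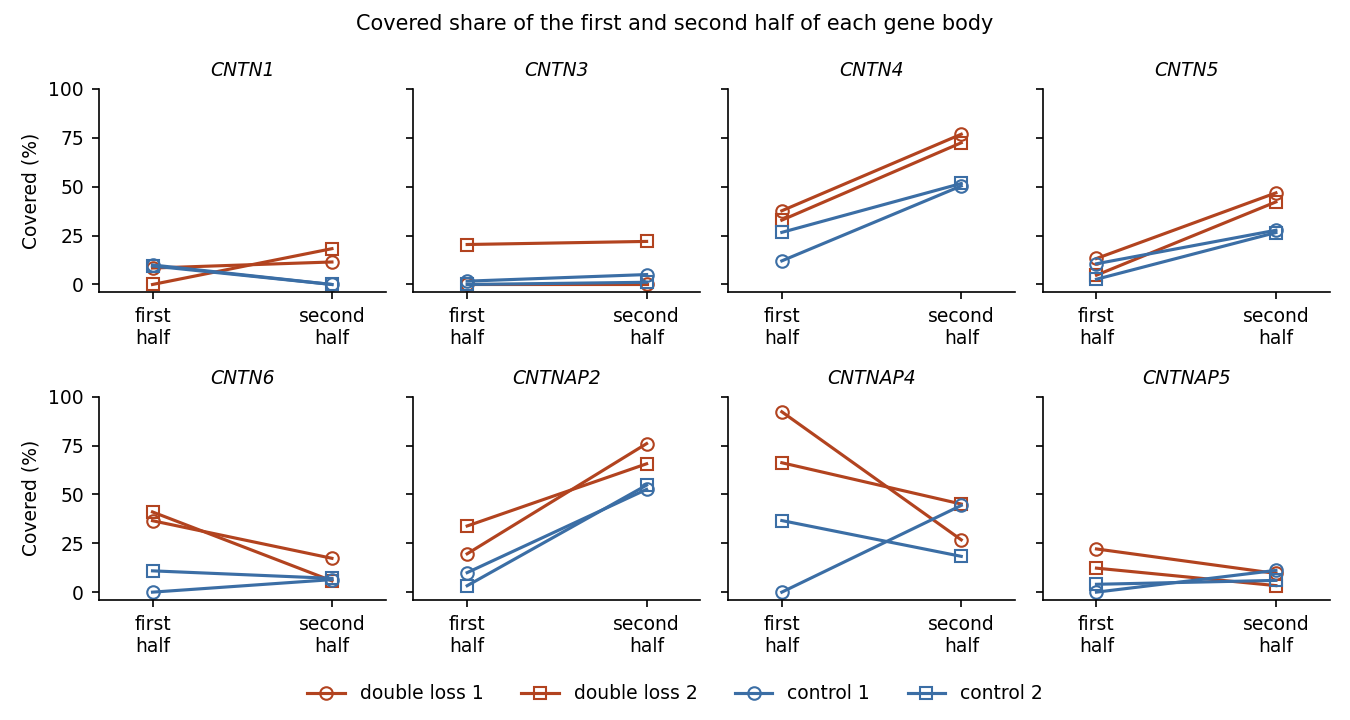
Covered share (percent, y axis) of the part of each gene body before and after its midpoint (x axis), with 1 line per list, red for double loss and blue for control. All 4 lines slope up in CNTN4, CNTN5 and CNTNAP2, while the double loss lines slope down in CNTN6, CNTNAP4 and CNTNAP5.

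Sequence shared by the lists was located in 1 kb units. Inside the members, 3849 kb lay in a region of at least 1 list. Of these, 464 kb were gained (covered in double loss 1 and 2 but not in the controls), and 29 kb were lost (the reverse). Gained sequence made up 12.1% of the covered sequence of the members and 6.41% of that of the genome, and lost sequence 0.753% and 4.43%. Sequence in all 4 lists amounted to 494 kb, or 12.8%, against 37.6% in the genome. Sequence found in a single list was more frequent than in the genome, at 43.8% against 23.6%. Agreement between lists of 1 group was lower than in the genome: 58.4% and 61.0% of the member sequence in double loss 1 and 2 was shared between them, against 77.8% and 76.3% genome-wide. Of the sequence in control 1 and 2, 51.7% and 52.4% was shared inside the members, against 75.2% and 81.4% genome-wide. In CNTN1, CNTN3 and CNTNAP4 the control lists shared 0 kb, so no sequence there could count as lost. Leaving out any 1 list moved these sums by construction, to 650 to 1113 kb gained and 104 to 279 kb lost, and gained exceeded lost each time. With a double loss list left out, gained sequence needs cover in 1 double loss list and lost sequence in both controls. That rule favours gained sequence, so the order of the sums there is no support.

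CNTNAP2 held 303 kb of the 494 kb kept in all 4 lists, CNTN4 held 131 kb and CNTN5 held 60 kb, while the other 5 members held none. The longest kept stretch was 92 kb, in CNTNAP2 from 148151001 to 148243000 on chromosome 7, starting 2035 kb from the gene start. The next was 75 kb, in CNTN4 from 2949001 to 3024000 on chromosome 3. In that part double loss 1 had 1 region of 152 kb with 1975 LaminB1 and 1267 control library reads, and control 2 had 1 region of 156 kb, reaching past the gene end, with 1987 LaminB1 and 1060 control library reads. Reads of LaminB1 were thus at 13.0 and 12.7 per kb in these 2 regions, and control library reads at 8.34 and 6.79 per kb.

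Gained sequence was spread over 7 members, with 179 kb in CNTNAP2, 122 kb in CNTN4, 55 kb in CNTNAP4, 35 kb in CNTN5, 28 kb in CNTNAP5, 23 kb in CNTN6 and 22 kb in CNTN1. The longest gained stretch was 34 kb, in CNTN4 from 2628001 to 2662000 on chromosome 3. There the regions held 770 LaminB1 and 550 control library reads over 68 kb in double loss 1, and 455 and 302 reads over 37 kb in double loss 2. In CNTNAP4 the longest gained stretch was 18 kb, from 76293001 to 76311000 on chromosome 16, just inside the gene. In CNTN6 it was 14 kb, from 1163001 to 1177000. Lost stretches were short: the longest was 10 kb, in CNTNAP5 from 124895001 to 124905000 on chromosome 2.

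**Figure D5:**
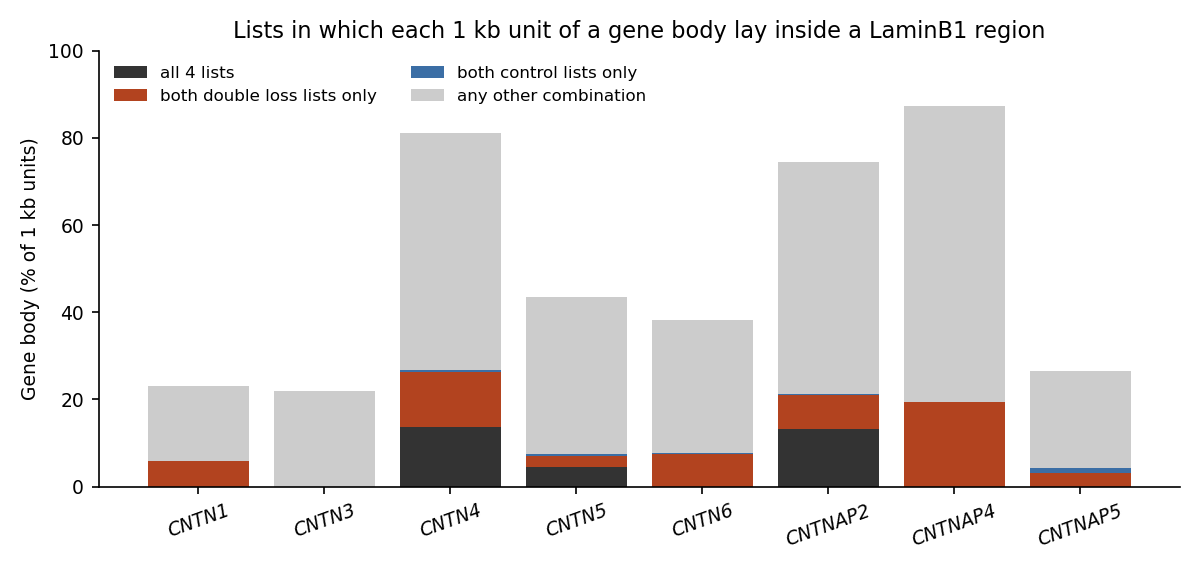
Share of the 1 kb units of each gene body (percent, y axis) that lay inside LaminB1 regions of all 4 lists, of both double loss lists only, of both control lists only, or of any other combination of lists. Units of both double loss lists only (464 kb in all) outnumber units of both control lists only (29 kb), and units of all 4 lists occur in CNTN4, CNTN5 and CNTNAP2.

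In 20 kb steps counted from the gene start, 135 and 133 of 345 steps were at least 50% covered in the double loss lists, against 81 and 75 in the control lists. In all 4 lists 32 steps were so covered, 27 in both double loss lists only and 1 in both control lists only. The share of genome steps with these patterns is not given here, so these counts are a description of the members only. Limma over 50358 covered 20 kb steps of the genome called 1.71% higher and 1.17% lower at an adjusted p under 0.05, 2.88% in all. Of 246 steps tested inside the members, 3 were called higher and 0 lower, a share no greater than that background; at an unadjusted p under 0.05 there were 26 higher and 1 lower, where the genome had 7.56% and 4.99%. The 3 steps were at 2640001 to 2660000 in CNTN4, at 1160001 to 1180000 in CNTN6 and at 147500001 to 147520000 in CNTNAP2, each 0% covered in both controls (limma adjusted p = 0.0476 each). That value was the smallest adjusted p of all 50358 steps, so every call of this fit lay just under the threshold. The 3 steps were covered at 100% and 100%, at 75% and 85%, and at 60% and 65% in double loss 1 and 2. All 3 calls ended with untransformed shares, with an equal number of regions per list and with the replicate block. The calls inside the members depended on the lists used: leaving out control 1 gave 9 higher and 11 lower steps, and leaving out control 2 gave 5 and 14. With double loss 1 left out there were 65 higher and 3 lower steps, and with double loss 2 left out 57 and 1.

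Reads in the regions of the members differed between the groups as they did genome-wide. Regions overlapping the members held 12.0 LaminB1 reads per kb in both double loss lists, against 11 and 11.6 in the control lists. They held 7.96 and 7.91 control library reads per kb in the double loss lists, against 6.25 and 6.26 in the control lists. The denser control library of the double loss group moved with the higher cover of the members, and its part in it was not tested. There were 79 regions in each double loss list, against 49 and 61 in the control lists. Their median width was 27 and 25 kb in the double loss lists, against 25 and 19 kb in the control lists. Regions were smaller and more numerous per covered sequence than elsewhere, at 30.3 and 32.3 per Mb in the double loss lists against 20.4 and 19.7 per Mb genome-wide, and at 29.9 and 37.5 against 18.1 and 24.8 in control 1 and 2. Medians of the authors' deposited log2 fold were 0.54 to 0.57 in the members' regions and 0.50 to 0.60 in all regions of the 4 lists.

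Sequence beside the genes was examined over 200 kb on each side. Around CNTNAP4 the flanks were also more covered in the double loss lists, at 51.7% and 62.0% before the gene, against 30.0% and 18.2% in the control lists. After CNTNAP4 the values were 50.1% and 64.5%, against 25.1% and 7.50% in the control lists. Around CNTN6 the flank before the gene was at 31.5% and 32.5% in the double loss lists, against 8.00% and 12.5% in the control lists, and the flank after it at 25.5% and 32.4%, against 7.89% and 0.892%. In both genes the groups did not overlap on either side. The flank before CNTNAP2 was also higher, at 26% and 16% in the double loss lists, against 0% and 9% in the control lists. Beside CNTN3 and CNTNAP2 the flank after the gene was lower in both double loss lists, at 6.72% and 0% against 18.7% and 15.8% for CNTN3, and at 19.5% and 14.0% against 28.0% and 25% for CNTNAP2. On both sides of CNTN1, CNTN4, CNTN5 and CNTNAP5, and before CNTN3, the groups overlapped. The share of other genes with flanks apart between the groups is not given here, so the flanks are a description only.

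The other genes of both families had no covered sequence. CNTN2 (the contactin TAG-1), CNTNAP1 (the paranodal partner of CNTN1), CNTNAP3, CNTNAP3B and CNTNAP3C were at 0% in all 4 lists; the last 3 are near-identical copies on chromosome 9, where reads may not be placed uniquely. Among 30 genes of partners of these proteins, 12 had covered sequence, 4 were above both controls and none was below both. Of all covered protein-coding genes, 21.5% were above both controls and 13.9% below both. Limma called 0 partners at an adjusted p under 0.05, against 2.65% of all covered genes. At an unadjusted p under 0.05 there was 1, EPB41L3, against 15.6% of all covered genes. EPB41L3, which encodes a paranodal membrane scaffold, was at 10.5% and 9.49% in the double loss lists, against 0% in both control lists. The largest differences were in NRCAM, CHL1, ADAM22 and PTPRZ1. NRCAM, an adhesion gene of the node, was at 44.6% and 22.6% in the double loss lists, against 0% and 13.3% in the control lists. ADAM22, which encodes a receptor of the LGI proteins, was at 8.56% and 34.6% in the double loss lists, against 0% in both control lists. PTPRZ1, which encodes a receptor phosphatase that binds CNTN1, was at 39.1% and 50.8% in the double loss lists, against 27.5% and 29.6% in the control lists. The partner genes NCAM1, TNC and ADAM23 were at least 94.4% covered in every list. Of 10 colorectal epithelial marker genes, 9 were at 0% in all 4 lists, and CDH17 was at 68.8% in double loss 2 and at 0% in the others. Only 3058 of 19974 protein-coding genes had covered sequence in any list, so 0% was the usual value and not particular to these markers.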

How the data were processed

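LaminB1 CUT&RUN reads were 75 bp pairs, per the labels' protocols. The submitters' processing notes name Bowtie2 2.3.4.3, Picard and hg38, with no order. The region caller is not given in the sources used here. Files went to samples through genotype word and replicate number, set against the titles. Regions lie on a 1 kb grid and were called per library. Per the file headers, the authors deposited raw counts of LaminB1 reads and of control library reads for each region. They also deposited, per the file headers, 1 raw and 1 adjusted p-value for each region. The deposited score is the deposited log2 fold times 100. The deposited log2 fold differs from the log2 ratio of both counts by a fixed amount in each list.

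From these, the share of each RefSeq gene body (GRCh38.p14) inside regions was computed with Python 3.11.15, numpy 2.4.6 and pandas 2.3.3. Strand came from the RefSeq promoter table, which gave it for 623 of 771 genes of at least 300 kb. Shares of gene bodies and of 20 kb steps with covered sequence in at least 1 list were compared after an arcsine square root transformation, using limma 3.58.1 (R 4.3.3) with a variance trend, Benjamini-Hochberg adjustment and a threshold of 0.05. Tested on simulated shares, the fit recovered most directions, but unchanged genes passed the adjusted threshold more often than it allows, so adjusted calls are uncertain. All members are described, with the 4 partner genes of the largest differences and any called. The nearest neighbour on each side and the nearest genes of at least 300 kb in covered share were taken by rule, and some of them are printed. The partner genes NCAM1, TNC, ADAM23 and EPB41L3 and the midpoint split were chosen after values were seen. Members, lists and tests were chosen with earlier results of these data known. Alternatives left out each list, blocked on replicate number, and changed regions, scale, filter, flanks and step positions. Sums without each member, and the count above both controls under other settings, were added after seeing the data.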

Additional observations from a re-analysis of the deposited data

How the results depend on the processing

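The difference in covered sequence over the members, 1012 kb, was 957 to 1066 kb with any 1 list left out, 796 kb for the top 50% of regions in log2 fold and 1105 kb with gaps of up to 10 kb merged. Of 95 member differences under alternatives, 94 kept their sign. With the replicate block, untransformed shares and 1 prior variance the differences were the main ones by construction, so their signs could not change. CNTN3 was at -1.91 points without double loss 2 and 19.4 points without double loss 1. CNTN1 had no value with the upper 50% of regions. The count of members above both controls was 6 to 8, with 6 for the upper 50% of regions and for an equal number of regions, and 1 member (CNTN3) was below both controls without double loss 2. Members called numbered 0 under all 13 alternatives.

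With the same 3 region settings, kept sequence was 137 kb (upper 50%), 440 kb (equal number) and 607 kb (merged); gained sequence was 341 kb (upper 50%) and 532 kb (merged), and lost sequence 17 kb (upper 50%). With 1 list left out these were 569 to 802, 650 to 1113 and 104 to 279 kb.

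Over all genes, 51 were called higher and 30 lower. With 1 list left out, limma called 115 to 373 higher and 118 to 265 lower. It called 0 in each direction with 10 kb added on each side (543 at an unadjusted p under 0.05). With 1 prior variance it called 94 and 52, with an equal number of regions 26 higher, and with merged gaps 54 lower. The fit with no filter on covered sequence could not be fitted. Of 20 kb steps, 861 were called higher and 591 lower, 2480 to 6483 and 3011 to 3821 with 1 list left out, and 0 in each direction with untransformed shares and with an equal number of regions (6038 and 5287 at an unadjusted p under 0.05). Steps inside the members called higher were 3, 5 to 65 with 1 list left out, 0 with untransformed shares and with an equal number of regions, 6 with the upper 50% of regions and 6 with merged gaps; steps called lower were 0, 1 to 14 with 1 list left out and 1 with steps shifted by 10 kb. The cause of these moves was not tested; with a list left out, the lone library of its group is assumed to vary like the other group.

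Same-numbered libraries did not deviate together (correlation -0.020 over 3058 covered genes and -0.127 over 501 of at least 300 kb), so the numbers were not taken to pair them. With the replicate block, limma called 0 genes and 0 steps in each direction (328 genes and 4805 steps at an unadjusted p under 0.05) and 0 steps inside the members.

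Depth limits these values: the median region of the members held 211 to 310 LaminB1 reads, and reads outside regions are unknown.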

Other observations

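The long genes whose covered shares were nearest to those of a member, by the mean absolute difference over the 4 lists, all lay on another chromosome than that member. AGMO on chromosome 7 was nearest to CNTN4, at a mean difference of 2.90 points, with 58.2% and 53.5% in the double loss lists, against 31.3% and 29.2% in the control lists. SLC35F4 on chromosome 14 was nearest to CNTNAP4, at 2.71 points. DCC, the netrin receptor gene of axon guidance on chromosome 18, was nearest to CNTN6, at 1.57 points, with 26.6% and 22.7% in the double loss lists, against 8.11% and 8.94% in the control lists. ZNF385D on chromosome 3 was nearest to CNTNAP2 at 2.96 points, NBEA on chromosome 13 to CNTN5 at 2.38 points, and ASIC2 on chromosome 17 to CNTN1 at 1.16 points. These are the smallest differences among 771 long genes and 4 lists, given as a description.

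Protein-coding neighbours of the members were not all covered like them. PDZRN3, after CNTN3, was below both controls, at 46.2% and 73.2% in the double loss lists, against 88.1% and 86.8% in the control lists (limma adjusted p = 0.459). ARHGAP42, after CNTN5, was at 9.46% and 8.46% in the double loss lists, against 0% in both control lists (limma adjusted p = 0.152). MUC19, before CNTN1, was at 91.0% and 59.4% in the double loss lists, against 55.6% and 36.9% in the control lists (limma adjusted p = 0.589).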
